A study of Mus musculus with 24 samples.

Results

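The genes described here are Spint1, Gpnmb, Dpep2, Msr1, Fcgr1, Tph1, Dpy19l3 and Scin, 8 of the 24476 mouse genes that could be tested in this bone marrow series. In GRCm38.p6 they lie at chr2:119237360-119249535 (Spint1), chr6:49036518-49058182 (Gpnmb), chr8:105984945-106006026 (Dpep2), chr8:39543232-39642750 (Msr1), chr3:96282909-96293969 (Fcgr1), chr7:46644641-46672537 (Tph1), chr7:35685500-35754460 (Dpy19l3) and chr12:40059769-40134228 (Scin). They were chosen because their transcripts were higher after benzo(a)pyrene (BP) in marrow of mice that lack the gene for the cytochrome P450 enzyme Cyp1a1. The choice used measured values, so that contrast, and those that share its arrays, are given as descriptions with no test. The other contrasts carry tests, but the Cyp1b1-null oil arrays share a slide with 2 of the BP arrays used in the choice.

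BP, dimethylbenz(a)anthracene (DMBA) and the dioxin TCDD bind the aryl hydrocarbon receptor (AhR), a cytosolic transcription factor that moves to the nucleus, pairs with Arnt and activates genes such as Cyp1a1, Cyp1b1 and its own repressor Ahrr. Cyp1a1 and Cyp1b1 oxidise BP and DMBA, while TCDD is metabolised very slowly. Marrow holds resident macrophages, which clear nuclei expelled by red cell precursors and old neutrophils, and which carry scavenger receptors and Fc receptors on their surface.

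The marrow came from female C57BL/6j mice of 6 weeks, and its total RNA was read on 24 Agilent 2-colour arrays in 10 groups. The double-null groups lack both Cyp1b1 and Cyp1a1 and had 2 BP arrays and 1 oil array. Cyp1a1-null marrow had 3 BP and 3 oil arrays, and Cyp1b1-null marrow had 2 DMBA and 2 oil arrays. Wild-type (WT) marrow had 2 BP, 3 DMBA, 3 TCDD and 3 oil arrays. BP was read at 12 h in the double-null and Cyp1a1-null mice but at 6 h in WT, and DMBA and TCDD at 12 h. No time is given for the oil controls. Agents and the olive oil vehicle were injected into the peritoneum, and the labels state a single dose of 50 mg/kg for all of them. The labels speak of 9 pooled samples without saying whether these are mice, or which channel they made up, so p-values measure the spread between the arrays of a group. The sample carried the dye Cy3 and a pool of WT oil marrow carried Cy5 on every array, so a log2 ratio of Cy3 over Cy5 near 0 is the level of that pool. In whole marrow, fewer cells of a type and less RNA per cell cannot be told apart.

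Several arrays limit what can be read from the 8 genes. WT oil replicate 1 stood apart: the SD of its log ratios was 1.26, against 0.665 or less on the other arrays, and the median liver gene lay at percentile 95.1 of its Cy3 levels, against 41.9 or lower elsewhere. Counts of called genes are therefore given with and without it. WT TCDD replicates 1 and 2 and both Cyp1b1-null DMBA arrays had a high floor of Cy3 signal, with a 5th percentile of log2 Cy3 of 7.84, 9.13, 8.17 and 8.73, against 5.82 to 6.65 on the others. The arrays lie on 10 slides, and arrays of different groups on 1 slide correlated at a mean r of 0.667 across genes (11 pairs), against 0.216 for arrays of 1 group on different slides (7 pairs). All 9 erythroid markers and 10 of 11 neutrophil markers were measured on every array. Cyp1a1 was well above background on no array of the Cyp1a1-null and double-null groups. It was not so either on WT oil replicates 2 and 3, the Cyp1b1-null oil arrays and WT TCDD replicate 1. The null oil arrays therefore do not show its loss. After BP it was at -0.07, -0.00 and 0.11 in Cyp1a1-null and -0.10 and -0.33 in double-null marrow, against 1.71 and 1.94 in WT. The Cyp1b1 probe was not lower in Cyp1b1-null oil marrow (0.51 and 1.08) than in WT oil marrow (-0.06, -0.04 and 0.57). It was at 1.57 in double-null oil and at 1.57 and 1.11 in double-null BP marrow. The probe thus does not show the loss of Cyp1b1, and whether it lies in the deleted part is not stated in the sources used here.

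The promoters of 3 members are shown because AhR binds a core sequence in DNA, Spint1 and Scin as windows with a match and Gpnmb as one without. Of the 8 genes, 6 have an entry in the RefSeq promoter table (GRCm38.p6), and Dpep2 and Msr1 do not. The 250 bases before the start were searched for the AhR core GCGTG and its reverse complement CACGC, which are in capitals below. These letters stood in 9250 of 32851 promoters, or 28.2%, so a match is a description and not a site.
Spint1, chr2:119237110-119237359, plus strand: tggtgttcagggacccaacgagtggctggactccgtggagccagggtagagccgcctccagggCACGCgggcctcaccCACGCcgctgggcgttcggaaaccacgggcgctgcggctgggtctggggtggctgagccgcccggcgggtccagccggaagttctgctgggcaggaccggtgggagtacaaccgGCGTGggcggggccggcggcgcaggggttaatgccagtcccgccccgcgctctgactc
Scin, chr12:40134229-40134478, minus strand: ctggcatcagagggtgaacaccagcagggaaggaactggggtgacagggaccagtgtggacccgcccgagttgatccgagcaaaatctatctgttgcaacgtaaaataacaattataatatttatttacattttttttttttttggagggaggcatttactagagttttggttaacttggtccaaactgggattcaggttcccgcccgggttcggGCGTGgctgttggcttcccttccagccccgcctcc
Gpnmb, chr6:49036268-49036517, plus strand: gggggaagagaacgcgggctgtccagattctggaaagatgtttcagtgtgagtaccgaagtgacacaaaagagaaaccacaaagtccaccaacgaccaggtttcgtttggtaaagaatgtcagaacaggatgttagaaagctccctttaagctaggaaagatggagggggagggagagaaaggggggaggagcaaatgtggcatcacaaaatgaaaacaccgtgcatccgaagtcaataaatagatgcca
The Spint1 window held 3 matches, which began 187, 172 and 58 bases before the start, and the Scin window held 1, at 35 bases. Gpnmb, Fcgr1 and Dpy19l3 held none in this window. Of the 2 Tph1 promoters listed, the one on chr7:46672538-46672787 held 2 matches and the other held none. For comparison, the window of Ahrr held 3, those of Cyp1a1, Cyp1b1 and Tiparp held 1 each, and that of Nqo1 held 0.

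In Cyp1a1-null marrow, the contrast the genes were chosen on, Spint1 was the furthest apart and Dpy19l3 the least. Spint1 encodes a Kunitz-type inhibitor of the membrane protease matriptase and of the activator of hepatocyte growth factor. Its log2 ratios were 3.25, 3.54 and 3.13 after BP, against -0.02, -0.10 and 0.24 after oil. Gpnmb, a transmembrane glycoprotein of macrophages and pigment cells, had 1.79, 2.10 and 1.84 after BP, against -0.33, -0.10 and 0.10 after oil. Both genes lay far above the oil arrays on every BP array. Dpep2, a membrane dipeptidase that can convert leukotriene D4 to E4, had 1.74, 1.95 and 1.22 after BP, against -0.48, -0.00 and -0.42 after oil. Msr1, the class A scavenger receptor of macrophages, had 0.75, 0.85 and 0.46 after BP, against -0.47, -0.39 and -0.28 after oil. Scin, an actin-severing protein of the gelsolin family, had 1.06, 1.08 and 1.43 after BP, against -0.43, -0.32 and -0.62 after oil. Dpep2 and Scin thus differed by more than Msr1, and none of the 3 overlapped between groups. Fcgr1, the high-affinity receptor for IgG, had 0.85, 0.89 and 0.28 after BP, against -0.16, -0.56 and -0.39 after oil, and Dpy19l3, an enzyme that adds mannose to tryptophan residues of secreted proteins, had 0.51, 0.63 and 0.57, against -0.17, 0.06 and 0.00.

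The differences of the group means, on the log2 scale, were 3.27 for Spint1, 2.02 for Gpnmb, 1.94 for Dpep2, 1.65 for Scin, 1.61 for Tph1, 1.07 for Msr1, 1.04 for Fcgr1 and 0.60 for Dpy19l3. The BP arrays lay above the oil arrays for all 8 genes, as the choice requires. Such separation held for 8.73% of all genes, and 0.0327% were called higher by limma (0.143% without WT oil replicate 1), from which nothing is read here.

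**Figure D1:**
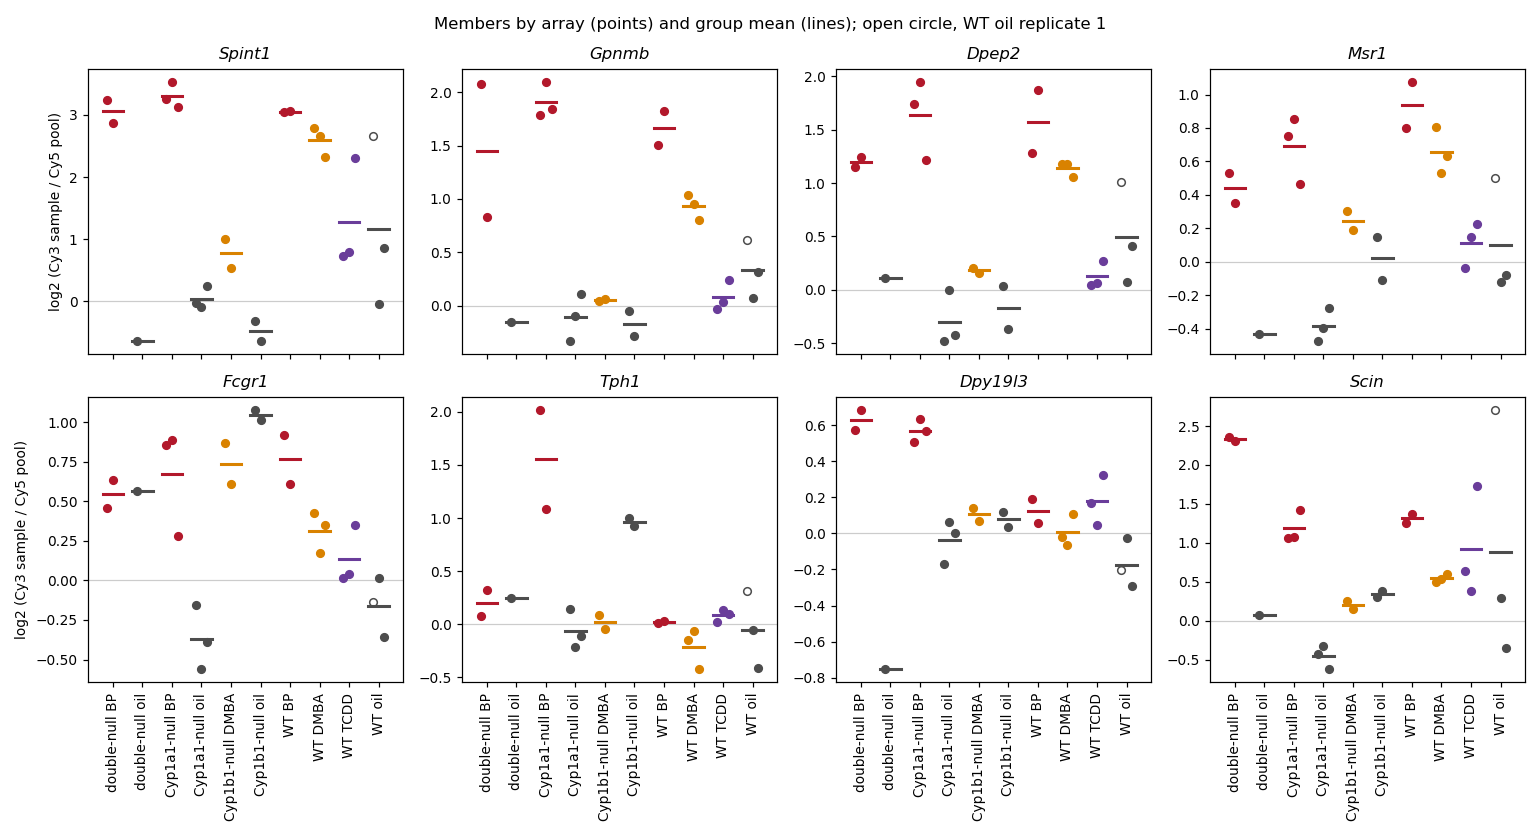
Log2 ratio of the Cy3 sample over the Cy5 pool (vertical axis) of the brightest probe of each gene on every array, by group (horizontal axis). Points are arrays, lines are group means and the open circle is WT oil replicate 1. Spint1, Gpnmb and Dpep2 are high in the BP groups and WT DMBA, while Fcgr1 and Tph1 are also high in Cyp1b1-null oil marrow.

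Slides divide that contrast. BP replicate 3 shared slide 9 with the 3 oil arrays, whereas BP replicates 1 and 2 lay on slide 7 with the 2 Cyp1b1-null oil arrays. Within slide 9 the log2 differences of BP replicate 3 over oil were 3.09 for Spint1, 1.95 for Gpnmb, 1.88 for Scin, 1.52 for Dpep2, 0.85 for Msr1, 0.65 for Fcgr1 and 0.60 for Dpy19l3. Tph1, whose product makes the rate-limiting step of serotonin synthesis outside the brain, had no usable value on BP replicate 3, because the spot was called non-uniform. The ratio of that spot would be -0.38, which lies below the 3 oil arrays, at 0.14, -0.22 and -0.11. Its higher level after BP therefore rests on replicates 1 and 2, at 2.02 and 1.08.

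Within slide 7, the same 2 BP arrays can be set beside Cyp1b1-null oil marrow. Fcgr1 was at 0.85 and 0.89 in Cyp1a1-null BP marrow and at 1.08 and 1.01 in Cyp1b1-null oil marrow, a difference of -0.18. Tph1 was at 1.00 and 0.93 in those oil arrays, and the difference was 0.59. Spint1, Gpnmb and Dpep2 kept log2 differences of 3.88, 2.11 and 2.01 on this slide, and Msr1, Scin and Dpy19l3 had 0.78, 0.72 and 0.49. Fcgr1 and Tph1 were thus high on slide 7 in marrow with and without BP, and the part of the slide in their levels was not tested.

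**Figure D2:**
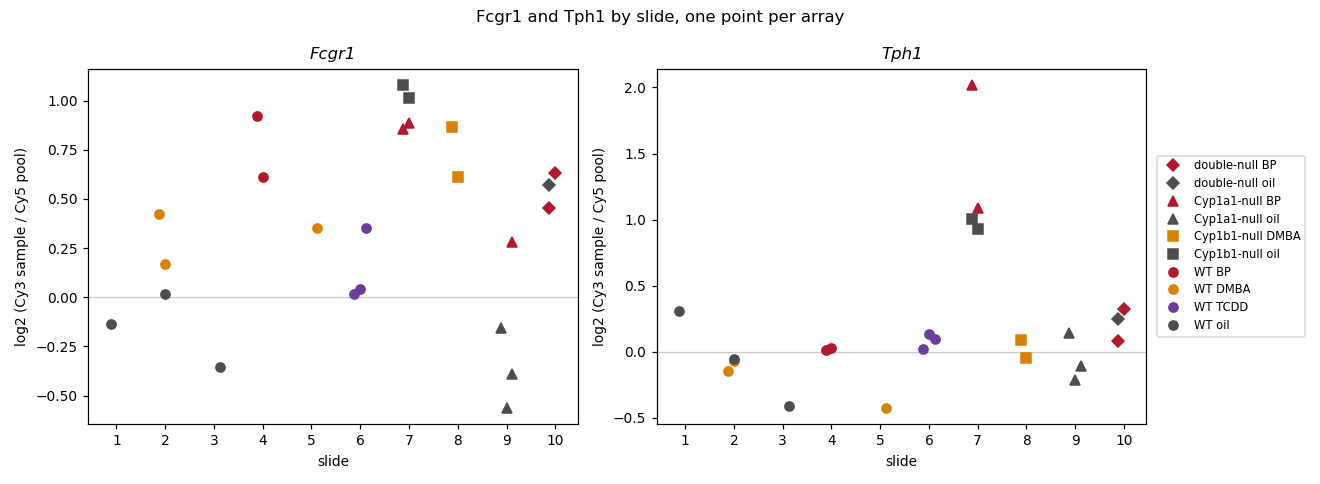
Log2 ratio of the Cy3 sample over the Cy5 pool (vertical axis) of Fcgr1 and Tph1 by slide (horizontal axis), with 1 point per array, colour for the agent and shape for the genotype. On slide 7 the Cyp1a1-null BP arrays lie at 0.85 and 0.89 for Fcgr1, below the Cyp1b1-null oil arrays at 1.08 and 1.01, and at 2.02 and 1.08 for Tph1, above the Cyp1b1-null oil arrays at 1.00 and 0.93.

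Double-null BP marrow is the comparison that did not enter the choice and lies wholly on slide 10. Spint1 was at 3.25 and 2.87 after BP, against -0.64 on the single oil array. Dpy19l3 was at 0.57 and 0.69 after BP, against -0.75 after oil. That single oil array was low for Dpy19l3 beside oil means of -0.17 in WT, -0.03 in Cyp1a1-null and 0.08 in Cyp1b1-null marrow. Both rose: by 3.70 ± 0.74 on the log2 scale for Spint1 (SE, limma adjusted p = 0.0473) and by 1.38 ± 0.15 for Dpy19l3 (adjusted p = 9.93e-05). Scin was at 2.36 and 2.31 after BP, against 0.07 after oil. Its log2 change of 2.27 ± 0.77 missed the threshold (adjusted p = 0.43).

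Gpnmb was at 2.08 and 0.83 in double-null BP marrow, against -0.15 after oil, where its Cy3 signal was not well above background. The log2 ratio of Gpnmb had a change of 1.61 ± 0.35 (adjusted p = 0.0734), which missed the threshold. On the Cy3 scale its level was at least 2.78-fold higher on the BP arrays (mean of normalized log2 Cy3 8.27 after BP, against a bound of 6.80 after oil). Dpep2 was at 1.15 and 1.25 after BP, against 0.11 after oil, a log2 change of 1.09 ± 0.34 (adjusted p = 0.335). Msr1 was at 0.53 and 0.35 after BP, against -0.43 after oil, a log2 change of 0.87 ± 0.24 (adjusted p = 0.203). The BP arrays lay above the oil array for these 6 genes, a separation that 35.2% of all genes show against 1 array. Fcgr1 was at 0.46 and 0.63 after BP, against 0.57 after oil, and Tph1 at 0.08 and 0.32, against 0.25, so neither gene was separated there. Their 95% intervals of the log2 change ran from -0.55 to 0.50 for Fcgr1 and from -0.71 to 0.61 for Tph1.

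In all, 2 of the 8 genes were called higher in double-null marrow after BP, where 0.200% of all genes were called higher. WT oil replicate 1 enters this contrast only in the pooled spread, and without it 5 of 8 were called: Spint1 (adjusted p = 0.000604), Dpy19l3 (adjusted p = 6.7e-05), Scin (adjusted p = 0.00467), Gpnmb (adjusted p = 0.0326) and Msr1 (adjusted p = 0.039), with 0.319% of all genes called higher. With slide as a random block all 24 arrays gave 6 of 8, Dpep2 included (adjusted p = 0.0229), with 0.944% of all genes called higher. Without double-null BP replicate 1 the count was 1 of 8. The fit takes the spread of the single oil array from the other groups.

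In WT marrow 6 h after BP, Gpnmb, Msr1 and Fcgr1 rose, and Tph1 and Dpy19l3 were near the oil level. Gpnmb was at 1.51 and 1.82 after BP, against 0.62, 0.07 and 0.31 after oil, a log2 change of 1.33 ± 0.26 (limma adjusted p = 0.0298). Msr1 was at 0.80 and 1.08 after BP, against 0.50, -0.12 and -0.08 after oil, a log2 change of 0.84 ± 0.18 (adjusted p = 0.0376). Fcgr1 was at 0.92 and 0.61 after BP, against -0.14, 0.01 and -0.36 after oil, a log2 change of 0.93 ± 0.19 (adjusted p = 0.0329). The BP arrays lay above all oil arrays for these 3 genes and for Spint1, Dpep2 and Dpy19l3, 6 of 8, as they did for 10.6% of all genes. Without WT oil replicate 1 the log2 changes were 1.47 for Gpnmb (adjusted p = 0.00724), 1.04 for Msr1 (adjusted p = 0.00212) and 0.94 for Fcgr1 (adjusted p = 0.0176).

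Spint1 and Scin were high on WT oil replicate 1 itself. Spint1 was at 3.04 and 3.07 after BP, against 2.67, -0.05 and 0.85 after oil, with an adjusted p of 0.121. Scin was at 1.25 and 1.38 after BP, against 2.71, 0.29 and -0.35 after oil, so the groups overlapped. Dpep2 was at 1.28 and 1.87 after BP, against 1.01, 0.07 and 0.41 after oil (adjusted p = 0.0601). Without that oil array the log2 changes were 2.65 ± 0.39 for Spint1 (adjusted p = 0.00224), 1.34 ± 0.23 for Dpep2 (adjusted p = 0.00532) and 1.34 ± 0.30 for Scin (adjusted p = 0.0197). Tph1 was at 0.01 and 0.03 after BP, and Dpy19l3 at 0.19 and 0.06, and neither was called with or without it.

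Of the 8 genes, 3 were called higher in WT marrow after BP, where 0.192% of all genes were called higher, and 6 without WT oil replicate 1, where 1.50% were. With all arrays 6 members had an unadjusted p under 0.05, as had 3817 of all genes. The median log2 change of the 8 was 0.88, against 0.01 over all genes. No member was called when slide entered as a random block, in which fit limma called 0 genes of all (0%) and 379 had an unadjusted p under 0.05. Without WT oil replicate 1 that fit called no member and 0.00817% of all genes higher. Both BP arrays lay on slide 4, which held no oil array, and without either BP array no member was called. BP in WT was read at another time than in the null genotypes, so the values stand side by side and the genotypes were not compared.

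**Figure D3:**
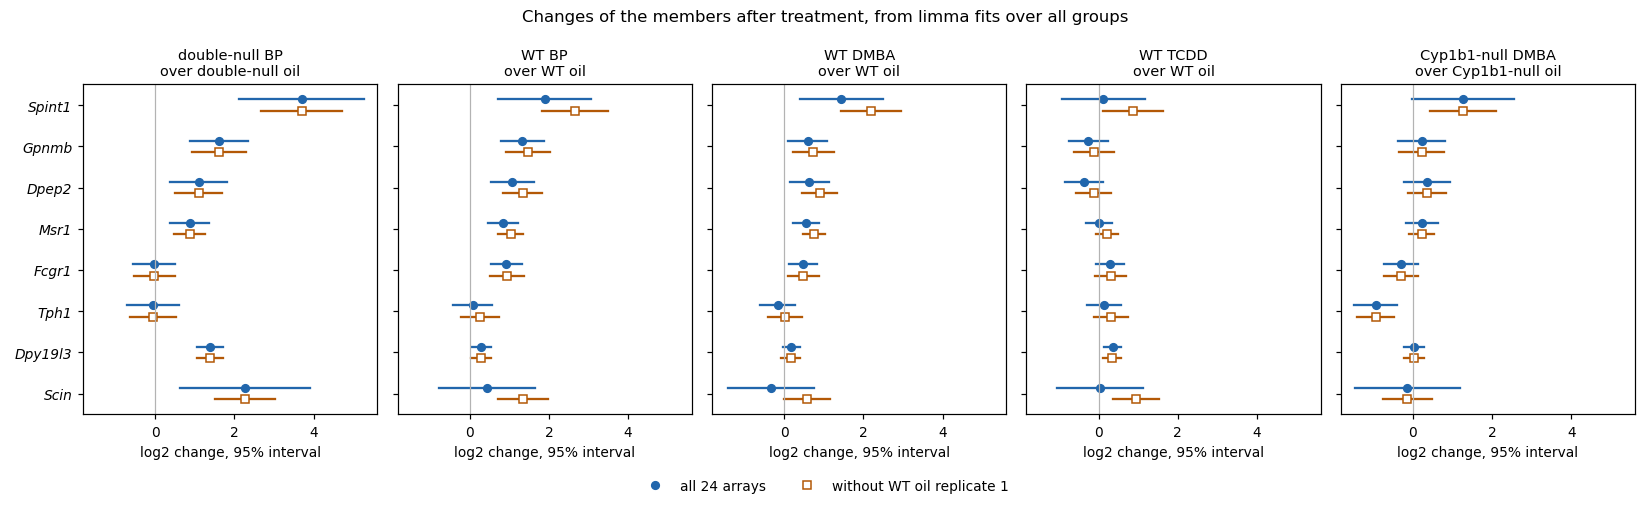
Log2 change after treatment (horizontal axis) of each gene (rows) in 5 comparisons, with 95% intervals of the limma fit. Filled circles use all 24 arrays and open squares leave out WT oil replicate 1. In WT BP the interval of Spint1 lies above 0 in both fits, and that of Scin runs from -0.78 to 1.64 with all arrays and from 0.72 to 1.97 without the oil array.

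In WT marrow 12 h after DMBA, Spint1 was at 2.79, 2.67 and 2.33, against the oil values above. Gpnmb was at 1.04, 0.95 and 0.80 after DMBA, Dpep2 at 1.18, 1.17 and 1.06, and Msr1 at 0.81, 0.53 and 0.63. The DMBA arrays of Gpnmb, Dpep2, Msr1 and Fcgr1 lay above all oil arrays, a separation seen in 6.11% of all genes. With all arrays limma called 0 of the 8 genes and 0 of all genes (0.00% higher), and 5 members had an unadjusted p under 0.05, as had 3024 of all 24476 genes. Without WT oil replicate 1, Spint1 rose by 2.19 ± 0.36 (adjusted p = 0.047) and Msr1 by 0.76 ± 0.14 (adjusted p = 0.047), 2 of 8 against 0.0899% of all genes. Within slide 2, which held WT oil replicate 2 and 2 DMBA arrays, the log2 differences were 2.78 for Spint1, 1.10 for Dpep2, 0.92 for Gpnmb and 0.79 for Msr1, and those of Tph1 and Dpy19l3 were -0.05 and -0.02.

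With slide as a random block, Spint1 was called with all arrays (adjusted p = 0.0450, with 0.159% of all genes higher), and Spint1, Dpep2 and Msr1 without WT oil replicate 1, where 0.274% of all genes were called higher. Fcgr1 was at 0.42, 0.17 and 0.35 after DMBA and Scin at 0.50, 0.54 and 0.60, and neither passed the test.

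After TCDD in WT marrow the level of Spint1 depended on which signal of the scanner was read. From mean signals it was at 0.73, 0.79 and 2.31, and the 2 low values are the arrays with the high Cy3 floor. From the processed signals, from which the scanner software had removed background and dye bias, Spint1 was at 3.26, 3.45 and 3.37 after TCDD, against 3.48, -0.01 and 1.51 after oil. Scin had 0.63, 0.39 and 1.73 from mean signals and 1.31, 1.26 and 2.09 from processed signals. The part of the floor in these differences was not tested.

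Gpnmb was at -0.03, 0.03 and 0.24 after TCDD from mean signals, Dpep2 at 0.04, 0.06 and 0.27, and Msr1 at -0.04, 0.15 and 0.22. Fcgr1 was at 0.02, 0.04 and 0.35, Tph1 at 0.02, 0.13 and 0.10, and Dpy19l3 at 0.17, 0.05 and 0.32. From mean signals these 6 genes stayed close to the pool on all TCDD arrays. From processed signals Gpnmb was at 0.88, 1.72 and 1.21 after TCDD, Dpep2 at 1.27, 1.04 and 0.58, and Tph1 at 0.17, 1.15 and 0.38. From mean signals only Fcgr1 and Dpy19l3 among them lay above every oil array, 2 of 8 beside 6.78% of all genes, with adjusted p of 0.312 and 0.0715 in the limma fit.

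From mean signals 0 of the 8 genes were called after TCDD, where limma called 0.290% of all genes higher, and 1 member had an unadjusted p under 0.05, as had 5214 of all genes. Scin was called higher without WT oil replicate 1, by 0.95 ± 0.27 (adjusted p = 0.0478), 1 of 8 against 2.24% of all genes. From processed signals with all arrays 0 of 8 were called, against 1.00% of all genes higher. Without that oil array, Spint1 rose by 2.61 (adjusted p = 0.00261), Scin by 1.48 (adjusted p = 0.00787) and Tph1 by 1.50 (adjusted p = 0.0385), with 5.67% of all genes called higher. Gpnmb and Dpep2 were not called in either. All TCDD arrays lay on slide 6, which held no oil array.

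DMBA over TCDD in WT marrow compares an agent that Cyp1 enzymes oxidise with one they hardly touch, at the same time and labelled dose. From mean signals, Spint1, Gpnmb, Dpep2 and Msr1 were higher on every DMBA array than on every TCDD array, which held for 17.3% of all genes. With all arrays limma called 0 of the 8 genes, where 0.523% of all genes were called higher, and 4 members had an unadjusted p under 0.05, as had 2267 of all genes. Without WT oil replicate 1 those 4 were called, against 4.42% of all genes, with log2 differences of 1.32 for Spint1 (adjusted p = 0.0211), 1.01 for Dpep2 (adjusted p = 0.00413), 0.85 for Gpnmb (adjusted p = 0.0269) and 0.55 for Msr1 (adjusted p = 0.0129). With slide as a random block limma called no member, and 0 of all genes with all arrays or 11 without WT oil replicate 1. The TCDD arrays lay on slide 6 and the DMBA arrays on slides 2 and 5, so agent and slide cannot be told apart. From processed signals the Spint1 difference turned to -0.30 and was not called, and with all arrays limma called no member, against 0.409% of all genes higher. Without WT oil replicate 1 processed signals gave a higher Gpnmb (log2 difference 1.13, adjusted p = 0.0433) and a lower Scin (-0.90, adjusted p = 0.0303), against 6.51% of all genes higher and 3.43% lower. The DMBA values of Spint1 from processed signals were 3.27, 3.23 and 2.70, which overlap the TCDD values above. Gpnmb from processed signals was at 2.61, 2.23 and 2.36 after DMBA, against 0.88, 1.72 and 1.21 after TCDD, and stayed higher on every DMBA array.

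In Cyp1b1-null marrow the response to DMBA also depended on the signal read. From mean signals Spint1 was at 1.01 and 0.54 after DMBA, against -0.32 and -0.65 after oil, a log2 change of 1.25 ± 0.61 (limma adjusted p = 0.359). Gpnmb was at 0.04 and 0.06 after DMBA, against -0.05 and -0.29, and Dpep2 at 0.20 and 0.16, against 0.03 and -0.37. Msr1 was at 0.30 and 0.19 after DMBA, against 0.15 and -0.11 after oil, and Fcgr1 at 0.87 and 0.61, against 1.08 and 1.01. Scin was at 0.25 and 0.16 after DMBA, against 0.31 and 0.38 after oil. Tph1 was at 0.09 and -0.04, below the 1.00 and 0.93 of the oil arrays on slide 7. From processed signals the values were far apart: Spint1 was at 2.56 and 1.74 after DMBA, against -1.26 and -1.51 after oil. Dpep2 from processed signals was at 1.52 and 1.65 after DMBA, against -0.27 and -0.86. Both DMBA arrays had the high floor, and they lay on slide 8, which held no oil array.

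From mean signals 0 of the 8 genes were called in that comparison (0.00409% of all genes higher, 0.0204% lower), and 1 member had an unadjusted p under 0.05, as had 3564 of all genes. Without WT oil replicate 1, Tph1 fell by 0.94 ± 0.22 (adjusted p = 0.0205), 1 of 8 against 4.13% of all genes lower and 3.35% higher. The oil arrays of this comparison lie on slide 7 with BP arrays used in the choice. A Tph1 fall from their level is thus not independent of the choice. From processed signals with all arrays no member was called (0.0123% of all genes higher, 0% lower). From processed signals without WT oil replicate 1, Spint1 rose by 3.53 (adjusted p = 0.00121), Gpnmb by 2.98 (adjusted p = 0.00542) and Dpep2 by 2.15 (adjusted p = 0.00917), against 3.45% of all genes higher, and Tph1 fell by 1.66 (adjusted p = 0.0464, with 4.01% lower). The difference between the DMBA responses of Cyp1b1-null and WT marrow was called for 0 of the 8 genes by limma, with and without WT oil replicate 1, where 0.00409% and 1.70% of all genes were called lower and 0.00409% and 1.34% higher. At an unadjusted p under 0.05 it was 2 of the 8 beside 2894 of all genes with all arrays, and 3 of the 8 beside 5429 of all genes without that oil array. For Spint1 that difference was -0.19 with a 95% interval from -1.84 to 1.47.

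The authors' deposited table holds log2 differences between groups, with no values per array. Its column medians ran from -0.06 to 0.05, and its scale and the direction of each column were taken from the headings, since no source used here states its normalization. For Cyp1b1-null DMBA over oil the authors' deposited table lists 3.53 for Spint1, 2.98 for Gpnmb and 2.15 for Dpep2, the same to 2 decimals as the processed signals gave. For WT BP over oil the authors' deposited table lists 2.39 for Spint1, 1.81 for Gpnmb, 1.58 for Dpep2, 1.40 for Scin and 1.12 for Tph1. The fit to mean signals gave 0.43 for Scin and 0.07 for Tph1 there, or 1.34 and 0.26 without WT oil replicate 1. For WT TCDD over oil the authors' deposited table lists 2.31 for Spint1 and 1.47 for Scin, but -0.02 for Gpnmb. For Cyp1b1-null oil over WT oil the authors' deposited table lists -2.43 for Spint1, -2.42 for Gpnmb, -1.24 for Dpep2 and 2.82 for Tph1. Across genes its values and those of the main fit had an r of 0.328 in WT BP, 0.192 in WT DMBA and 0.378 in WT TCDD. In Cyp1b1-null DMBA the r was 0.716.

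Untreated genotypes were set against WT oil marrow. In Cyp1b1-null oil marrow Fcgr1 was higher by 1.21 ± 0.19 (limma adjusted p = 0.002) and Tph1 by 1.02 ± 0.23 (adjusted p = 0.0115), 2 of 8 against 8.53% of all genes called higher (17.3% without WT oil replicate 1, with the same 2 members). With slide as a random block neither was called with all arrays, and both without WT oil replicate 1, where 3.77% of all genes were called higher. These are the slide 7 arrays described above, which lie beside Cyp1a1-null BP replicates 1 and 2, used in the choice. These tests are therefore not independent of the choice, and nothing is read from the 2 calls. On the same arrays 6 of 22 macrophage markers were called higher, among them C1qb, a complement subunit of resident macrophages, by 1.73 (adjusted p = 0.00122). With slide as a random block and all arrays, limma called 0 genes of all there, these markers included, and 2530 had an unadjusted p under 0.05. Spint1 in Cyp1b1-null oil marrow had a log2 difference of -1.64 ± 0.55 (adjusted p = 0.0546), or -0.89 without WT oil replicate 1 (adjusted p = 0.100). Gpnmb and Dpep2 differed by -0.50 (adjusted p = 0.191) and -0.67 (adjusted p = 0.0846). This comparison also depended on the signal read. From processed signals Gpnmb was at -0.53 and -1.74, against 2.98, 0.20 and 1.34 in WT oil. With processed signals limma called 4 of 8 in either direction, beside 3299 of all genes. Without WT oil replicate 1 it called 5, beside 7507. In double-null oil marrow 0 of 8 were called by limma (0.703% of all genes higher, 0.863% lower), and 4 had an unadjusted p under 0.05, as had 4294 of all 24463 genes. Dpy19l3 was at -0.75 there, against -0.20, -0.03 and -0.29 in WT oil, and it was lower by 0.59 without WT oil replicate 1 (log2 change -0.59, adjusted p = 0.028, against 3.01% of all genes lower and 3.09% higher).

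Cyp1a1-null oil over WT oil and double-null BP over Cyp1a1-null BP share arrays with the choice and were not tested. The members' log2 differences in Cyp1a1-null oil marrow ran from -1.34 for Scin to 0.14 for Dpy19l3, and without WT oil replicate 1 from -0.54 for Dpep2 to 0.17 for Tph1. Between the BP groups of the null genotypes, both at 12 h, Tph1 was lower in double-null marrow (log2 difference -1.35) and Scin higher (1.15), and the other 6 differed by -0.46 to 0.06. The Scin values were 2.36 and 2.31 in double-null BP marrow, against 1.06, 1.08 and 1.43 in Cyp1a1-null BP marrow.

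Across the 10 groups the order of the levels, from mean signals, split the genes. Spint1 was at 3.31 in Cyp1a1-null BP, 3.06 in double-null BP and 3.06 in WT BP. The double-null BP arrays overlapped both other BP groups, which did not overlap each other. WT DMBA followed at 2.60, and then WT TCDD at 1.28 and WT oil at 1.16. From processed signals TCDD was not below DMBA for Spint1, as given above. The lowest levels were -0.48 in Cyp1b1-null oil and -0.64 in double-null oil. Gpnmb and Dpep2 had the 3 BP groups at the top and WT DMBA next, whose arrays overlapped those of double-null BP for each gene. Msr1 had WT BP first at 0.94, then Cyp1a1-null BP at 0.69 and WT DMBA at 0.66, whose arrays overlapped, and then double-null BP at 0.44. Scin was highest in double-null BP at 2.34, with WT BP at 1.31 and Cyp1a1-null BP at 1.19 overlapping. Fcgr1 was highest in Cyp1b1-null oil at 1.05 and Dpy19l3 in double-null BP at 0.63, beside Cyp1a1-null BP at 0.57.

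The levels were also set beside each other over the 10 group means, which share arrays and slides. Cyp1a1-null BP and oil, on which the 8 genes were chosen, are 2 of these groups, so likeness to one another and to genes that are high after BP is partly fixed by the choice and supports nothing. As a description, the levels of Spint1 had a Pearson r of 0.945 with Gpnmb, 0.938 with Dpep2 and 0.901 with Msr1. With Fcgr1 and Tph1 the r of Spint1 was 0.117 and 0.104. Among 19370 other genes, Ahrr, the AhR repressor, had the highest r with Spint1 (0.961), Gpnmb (0.985) and Dpep2 (0.965), also without WT oil replicate 1. Ahrr averaged 2.71 in double-null BP, 2.66 in WT BP and 2.57 in Cyp1a1-null BP, against 0.79 in WT oil. Msr1 was nearest to Fam174a (0.949) and Scin to Kcnc1 (0.909). The nearest gene was Slfn5 for Fcgr1 (0.960), Chrna1 for Tph1 (0.988) and Fzd5 for Dpy19l3 (0.960), and for these 3 and for Scin it changed when WT oil replicate 1 was left out.

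**Figure D4:**
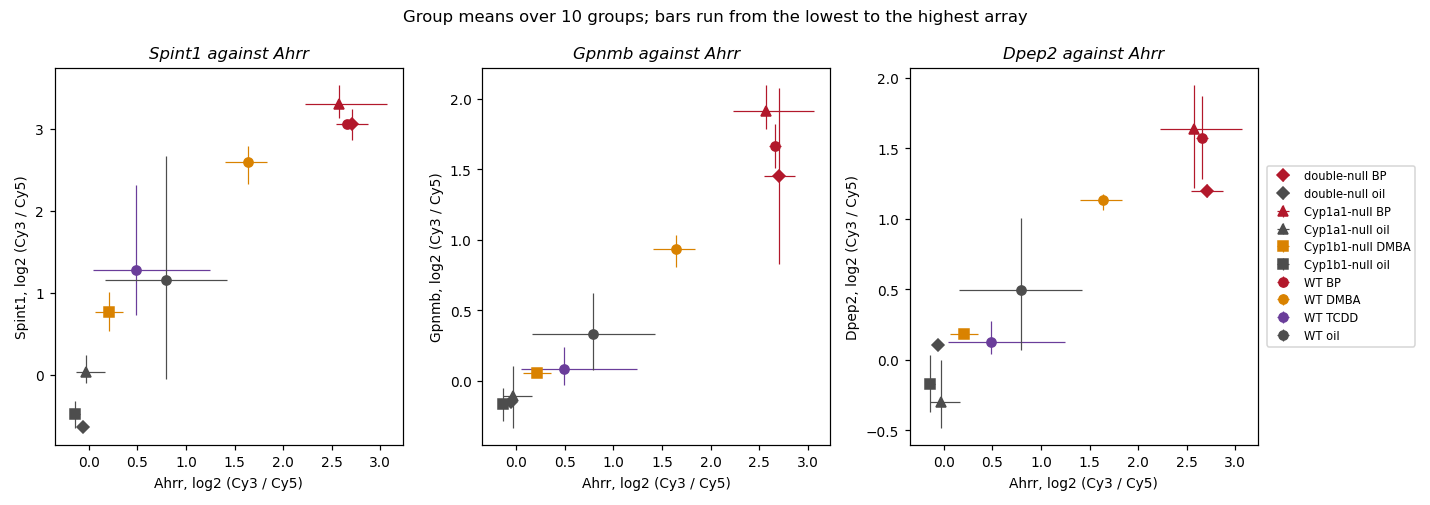
Group means of the log2 ratio of Cy3 over Cy5 for Spint1, Gpnmb and Dpep2 (vertical axes) against Ahrr (horizontal axes) in the 10 groups, with bars from the lowest to the highest array. The BP groups lie at the upper right with Ahrr means of 2.57 to 2.71, WT DMBA lies below them at 1.64, and the oil groups of the null genotypes lie at the lower left.

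Few genes of the lists around these 8 were called, and few of all genes were called higher (0.192% in WT BP, 0.200% in double-null BP). A list with no call is therefore not read as unchanged. Of 18 AhR pathway genes 16 were tested, and in WT marrow after BP 3 were called higher: Ahrr (log2 change 1.87, limma adjusted p = 0.0258), Cyp1a1 (1.69, adjusted p = 0.0179) and the quinone reductase Nqo1 (0.75, adjusted p = 0.0302). With slide as a random block limma called 0 genes of all in that comparison, these 3 included. In double-null marrow after BP, Ahrr was called higher, by 2.77 (adjusted p = 0.0124). Of 22 macrophage markers, all tested and among them Adgre1, Cd68 and Csf1r on every array, limma called 0 in WT BP (2 without WT oil replicate 1) and 0 in double-null BP (0 without it). Their median log2 change was 0.41 in WT BP, 0.24 without that array, and 0.17 in double-null BP. The mean log2 ratio of the list was 0.46 to 0.55 in WT BP, against -0.10 to 0.28 in WT oil, and 0.56 to 0.62 in double-null BP, against 0.45 in double-null oil. Its summed Cy3 level was 129961 to 130677 in WT BP, against 102328 to 133637 in WT oil, and 151867 to 161719 in double-null BP, against 127001 in double-null oil. The part of macrophage number in the changes of the 8 genes was not tested.

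Few genes related to single members were called after BP, where 0.192% of all genes in WT and 0.200% in double-null marrow were called higher. Lists of this size with no call are not read as unchanged. Of 10 other Fc receptor genes and signalling partners, 12 scavenger receptors, 9 genes of the matriptase and HGF axis, 12 tested genes of tryptophan and serotonin, 7 gelsolin relatives and 10 dipeptidase and leukotriene genes, limma called none in WT BP or double-null BP, with or without WT oil replicate 1. Of 18 lysosome and MITF/TFE genes, Tfec, a transcription factor of that family, was lower in WT BP by a log2 change of -0.91 (adjusted p = 0.0225), and by -0.80 without WT oil replicate 1 (adjusted p = 0.0144). The lysosomal protease gene Ctsl had a log2 change of 1.48 with all arrays (adjusted p = 0.121) and was called higher without that oil array, by 0.78 (adjusted p = 0.0452).

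The probes did not all tell the same story. The 8 genes had 17 probes, of which 14 were well above background on 3 or more arrays, and the brightest of each gene is used above. The second Spint1 probe had group means of 2.58 in Cyp1a1-null BP, 1.88 in double-null BP and 1.84 in WT BP, against 0.08 in Cyp1a1-null oil, 0.23 in double-null oil and 0.52 in WT oil. The 3 Msr1 probes had means of 0.94, 0.73 and 0.58 in WT BP, against 0.10, 0.34 and -0.07 in WT oil. The second Fcgr1 probe was at -0.02 in Cyp1b1-null oil, against -0.40 in WT oil, where the first had 1.05 against -0.16. In Cyp1a1-null marrow the second was at 0.07 after BP, against -0.39 after oil, where the first had 0.67 against -0.37. In WT BP the second had 0.42 and the first 0.77. The second probe thus moved in the same direction as the first in these comparisons, but by less. The second bright Dpy19l3 probe, so named in the newest array design only, had 0.31 in double-null BP, against -0.21 in double-null oil. In WT BP it had 0.51, against -0.07 in WT oil. The other probes of Gpnmb, Tph1 and Dpy19l3 were dim, and their group means lay within 0.32 of 0.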

How the data were processed

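Deposited Agilent files held, per the file headers, mean spot and local background intensity in both channels and processed signals (intensity values background-subtracted and dye-normalized by Feature Extraction). The authors' deposited table held log2 differences for 9 comparisons, and the submitters' processing notes name limma. Here limma 3.58.1 in R 4.3.3 corrected mean signals with normexp (offset 50), applied loess within arrays without scaling between them, and dropped control and flagged spots. The brightest probe stood for each gene, and a gene was tested with Cy3 well above background on 3 or more arrays (24476 genes). One fit covered 24 arrays and 10 groups, with Benjamini-Hochberg adjustment over all genes and calls at an adjusted p under 0.05. The number of arrays limits precision. Same-numbered arrays of different groups had deviations correlated at -0.25 to 0.33, so no pairing was used. The method was tested on simulated data. All 8 members, their probes, the gene lists and the 3 genes of highest correlation per member were named by rules chosen with earlier results of these data known. Gene positions and promoters are from RefSeq GRCm38.p6.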

Additional observations from a re-analysis of the deposited data

How the results depend on the processing

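Counts of the 8 members called under other settings follow, with the value of the report first. Numbers of all genes called stand in brackets where given. The cause of each shift was not tested. In double-null BP over oil 2 became 1 with Cy3 alone, a filter on 12 arrays, no background correction, a trended robust prior or the replicate block, 0 with the mean of probes, 4 with processed signals without WT oil replicate 1, and 6 with slide as a random block, with or without that array. In WT BP over oil 3 became 0 with Cy3 alone (73 of all genes called), processed signals (3), the compared groups only (0) or a trended robust prior (117). It also became 0 with slide as a random block, with all arrays (0) or without WT oil replicate 1 (2), and 1 with no background correction (30). In WT DMBA over oil 0 became 1 with slide as a random block (42 of all genes called) and 3 without WT oil replicate 1 as well (79). For WT TCDD over oil limma called 3303 of all genes with Cy3 alone and 1382 with no background correction. It called 2912 of all genes there with processed signals without WT oil replicate 1. In WT TCDD over oil 0 became 1 with Cy3 alone or no background correction, 3 with processed signals without WT oil replicate 1, and 2 without that array and the TCDD arrays with a high floor. In WT DMBA over TCDD 0 became 3 with Cy3 alone (5978 of all genes called) or the compared groups only (1932 of all genes), 1 with the mean of probes, no background correction or without those 3 arrays, and 2 with processed signals without WT oil replicate 1. In that comparison of agents limma called 81 of all genes with the mean of probes and 604 with no background correction. It called 2433 there with processed signals without WT oil replicate 1. In Cyp1b1-null DMBA over oil 0 became 1 with Cy3 alone (5 of all genes called) and 2 with the compared groups only (8432). It became 4 with processed signals without WT oil replicate 1 (1825). In Cyp1b1-null oil over WT oil 2 became 1 with Cy3 alone (1888 of all genes called) or flagged spots kept (3756). It became 0 with the compared groups only (0) or slide as a random block (0). Processed signals gave 4 (3299), and 5 without WT oil replicate 1 as well (7507). In double-null oil over WT oil 0 became 1 with Cy3 alone or no filter.

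Leaving out each replicate in turn gave 1 to 5 in double-null BP (1 without its BP replicate 1), 0 to 6 in WT BP (0 without either BP array), 0 to 2 in WT DMBA, 0 to 1 in WT TCDD, 0 to 4 in DMBA over TCDD, 0 to 1 in Cyp1b1-null DMBA, 1 to 4 in Cyp1b1-null oil (1 without either of its arrays, 4 without WT oil replicate 2), 1 to 2 in double-null oil (2 without WT oil replicate 2) and 0 in the difference between DMBA responses. The highest count was reached without WT oil replicate 1 in all 6 of these comparisons of a treatment. In WT TCDD it was also reached without WT oil replicate 2. In Cyp1b1-null oil the 4 without WT oil replicate 2 stood beside 6073 of all genes called. The sign of 4 single changes turned. Scin in WT BP was -0.38 with processed signals and ran from -0.19 without WT oil replicate 3 to 1.34 without WT oil replicate 1. Scin in WT TCDD was -0.31 with processed signals, -0.26 without WT oil replicate 2, -0.37 without WT TCDD replicate 3, and ran from -0.59 without WT oil replicate 3 to 0.95 without WT oil replicate 1. Spint1 in DMBA over TCDD was -0.30 with processed signals, with or without WT oil replicate 1. Tph1 in Cyp1b1-null DMBA was 0.66 with Cy3 alone. The replicate block, fitted although the numbers do not pair the samples, moved no other count by over 1.5 times. Keeping flagged spots and leaving out the TCDD arrays with a high floor were chosen after seeing the data. Over all alternatives, 324 of the values for single members kept their direction and side of the threshold, 46 passed it newly, 48 lost it and 9 turned round.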
